A study of Mus musculus with 2 samples.

Results

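The array that profiled circular RNA in mouse blood stem and progenitor cells also carried 50 probes named for ordinary transcripts. Described here are 5 of them, for genes of peroxide handling and fatty acid oxidation: Prdx2, Pex11a, Acaa2, Ppara and Duox1. They are 5 of 44 transcript probes with a gene symbol, beside 1797 circRNA probes, or 5 of 1847 features in all. A probe for Cpt1a, another gene of fatty acid oxidation, is not among them and is described below. The 5 were chosen by their readout, because each was higher on the LT-HSC array than on the MPP array, so their differences are given as a description and no test was made of them.

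Long-term haematopoietic stem cells (LT-HSC) and multipotent progenitors (MPP) were sorted by flow cytometry from bone marrow of wild-type (WT) C57/BL6 mice at 8 weeks of age. By the labels the groups share strain, genotype, age and tissue, neither carries a transgene or drug treatment, and they differ in the sorted cell type. In both, total RNA was digested with RNase R, an exonuclease that degrades linear RNA, before random-primed Cy3 labelling, and 1 array was hybridised per population. The sources used here do not give the number of mice or cells behind each array. None of 57 marker genes listed for stem cells, progenitors and other marrow cells had a probe (0 of 57), so the sorted identities could not be checked on these arrays. Each array had its own scan day, and scan day and population cannot be told apart. As a gauge of nonspecific signal, the 95th percentile over 40 probes named as negatives, called the negative ceiling here, was 121 for LT-HSC and 54.3 for MPP. All errors below are SDs over the spots of a probe within an array and are technical. In RNA from sorted populations, a difference in the number of cells carrying a transcript and a difference in RNA per cell cannot be told apart.

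Hydrogen peroxide is made by NADPH oxidases of the Nox and Duox families and as a by-product of fatty acid oxidation in peroxisomes, and it is removed by peroxiredoxins, catalase and glutathione peroxidases. Mitochondria shorten fatty acids stepwise to acetyl-CoA, and PPARα, a nuclear receptor that binds DNA together with a retinoid X receptor, turns on genes of both the peroxisomal and the mitochondrial pathway. In haematopoietic stem cells, low reactive oxygen species and fatty acid oxidation are both known for their part in self-renewal.

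All 5 probes gave stronger signal on the LT-HSC array, and on none did the spots of the arrays overlap. After each array was scaled to the 75th percentile of its circRNA probes, Prdx2, a peroxide-removing enzyme, was 5.92-fold higher in LT-HSC and Pex11a, a peroxisome division protein, was 5.24-fold higher. The thiolase Acaa2 was 3.23-fold, the receptor Ppara 2.93-fold and the peroxide-producing oxidase Duox1 2.72-fold higher. Thus 5 of 5 passed 2-fold, which the choice of members fixed. The same threshold was passed by 44.2% of the 43 transcript probes well above background on each array, and by 24.2% of the 1048 circRNA probes of that kind. Nothing is read from the members' count against these shares, since the choice used the same contrast.

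**Figure D1:**
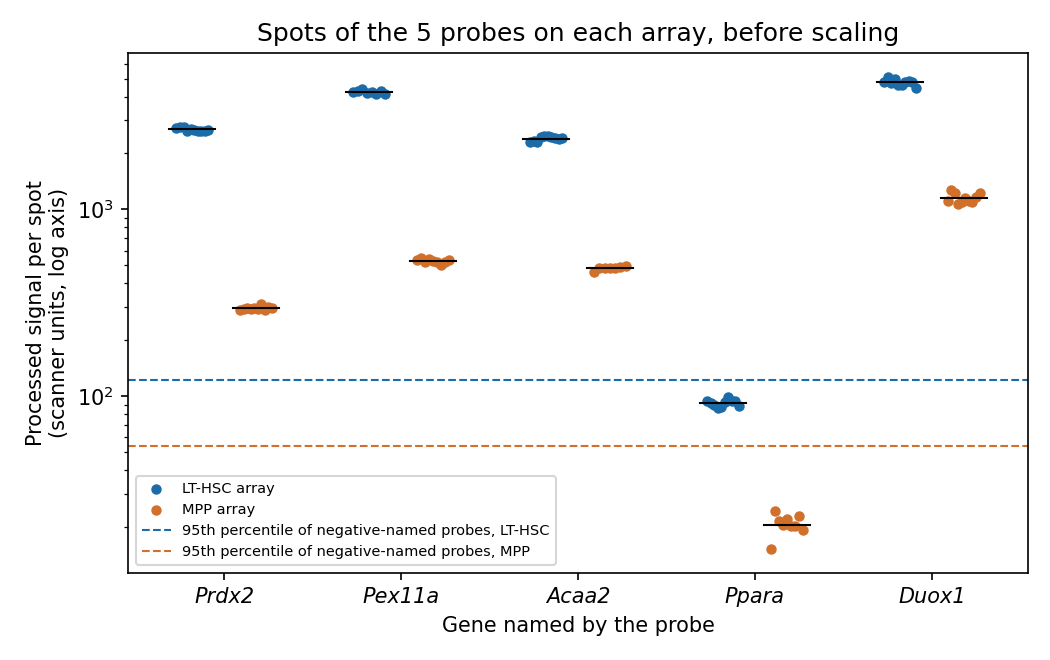
Processed signal of every kept spot (log axis, scanner units, before scaling) for the 5 probes on the LT-HSC array (blue) and the MPP array (orange). Black bars mark the mean of log2 signal and dashed lines the negative ceiling of each array, 121 for LT-HSC and 54.3 for MPP. For each probe the LT-HSC spots all lie above the MPP spots, and Ppara alone lies below the dashed line of its own array in both populations.

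Ppara encodes PPARα, the ligand-activated receptor named above. Its 10 spots on the LT-HSC array ran from 86.2 to 99.1 with a median of 92.2, and 9 kept spots on the MPP array ran from 15.2 to 24.3 with a median of 20.5. The ranges did not overlap. One MPP spot at 40.3 was left out as an outlier by the scanner software, and it too lay below every LT-HSC spot. Mean signal was 91.6 in LT-HSC (SD 0.06 on the log2 scale, 10 spots) and 20.5 in MPP (SD 0.19, 9 spots). The scaled difference was 1.55 ± 0.20 on the log2 scale (SD over spots), and spots paired by their place on the array grid differed by 1.31 to 2.01, with 9 of 9 places past 2-fold. This was the dimmest and the least even of the 5 probes: its MPP spots had a coefficient of variation of 12.4%. The scanner flagged every Ppara spot as well above local background, the spot median being 6.80 times the local background in LT-HSC and 3.47 times in MPP. Its signal was nevertheless 0.756 times the negative ceiling in LT-HSC and 0.377 times in MPP, so on both arrays it lay within the range of probes named as negatives. With the normexp background correction the difference was 0.54, and with normexp and quantile normalization 0.64, both below 2-fold. Normexp was run with an added offset of 50, which is larger than the mean MPP signal of 20.5. Background-subtracted signal gave 1.54 and quantile normalization alone 1.46, both past 2-fold.

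Pex11a encodes a peroxisomal membrane protein that promotes elongation and division of peroxisomes, and it is a known PPARα target in liver. On the LT-HSC array 8 kept spots ran from 4116 to 4372 with a median of 4243. On the MPP array 9 kept spots ran from 504 to 551 with a median of 526. The dimmest LT-HSC spot was 7.47 times the brightest MPP spot. The spots left out as outliers, at 3618 and 3796 in LT-HSC and 405 in MPP, lay on the same sides. Mean signal was 4229 (SD 0.03) against 528 (SD 0.04), an 8.01-fold difference before scaling and 2.39 ± 0.05 on the log2 scale after it. All 8 grid places with a kept spot on both arrays passed 2-fold, between 2.34 and 2.46. The signal was 34.9 times the negative ceiling in LT-HSC and 9.72 times in MPP.

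Acaa2 encodes a mitochondrial thiolase of the last step in a round of fatty acid oxidation, which releases acetyl-CoA. Its 10 LT-HSC spots ran from 2275 to 2471 with a median of 2410, and its 7 kept MPP spots from 458 to 498 with a median of 487. The lowest LT-HSC spot exceeded the highest kept MPP spot 4.56-fold. Outlier spots removed from the MPP array read 426, 519 and 527, again far below the LT-HSC spots. Mean signal was 2385 (SD 0.04) in LT-HSC and 484 (SD 0.04) in MPP, giving a scaled difference of 1.69 ± 0.06. The 7 grid places spanned 1.62 to 1.73.

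The only other probe on the array from the 29 genes listed for mitochondrial fatty acid oxidation was Cpt1a, which encodes the enzyme that commits long-chain fatty acids to mitochondrial import. Its signal was 97.6 in LT-HSC (SD 0.05) and 51.0 in MPP (SD 0.08), a difference of 0.33 ± 0.09, or 1.25-fold. Both values lay under the negative ceiling. Toward LT-HSC, Cpt1a stayed under 2-fold in 16 of 16 other ways of processing, with a highest difference of 0.94. Its lowest, -1.24 with centring on the negative-named probes, was past 2-fold toward MPP. That setting left the negative-named probes' own median difference at -0.78. Across 4 lists with 134 genes for peroxide handling, peroxisomes, fatty acid oxidation and PPAR regulation, 6 had a transcript probe, namely the 5 members and Cpt1a. The choice of members fixed that 5 of these 6 were higher in LT-HSC, so no count is read from the lists. The peroxide list had 2 of 44 genes on the array, the peroxisome list 1 of 36, and the PPAR list 1 of 25, so these values describe single genes and not the pathways.

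Duox1 encodes a membrane NADPH oxidase that releases hydrogen peroxide outside the cell and is best known from airway and thyroid epithelium. Its 10 LT-HSC spots ran from 4477 to 5121 with a median of 4799, and its 10 MPP spots from 1071 to 1264 with a median of 1131. The groups of spots were separated by a 3.54-fold gap. Mean signal was 4777 (SD 0.06) against 1148 (SD 0.08). The scaled difference of 1.45 ± 0.10 was the smallest of the 5, with 10 of 10 grid places between 1.27 and 1.61.

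Prdx2 encodes a cytosolic peroxiredoxin that reduces hydrogen peroxide with electrons from thioredoxin, and it is abundant in red blood cells. Its LT-HSC spots ran from 2618 to 2746 with a median of 2654 and its MPP spots from 290 to 309 with a median of 294, over 10 spots on each array. Every LT-HSC spot was at least 8.46 times as bright as every MPP spot. Mean signal was 2669 (SD 0.03) in LT-HSC and 295 (SD 0.03) in MPP, a 9.05-fold difference before scaling and 2.57 ± 0.04 on the log2 scale after it. The 10 grid places ranged from 2.47 to 2.63. None of 7 listed erythroid marker genes had a probe, so the part of red-cell RNA in this value was not tested.

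The promoters of the pair with the largest differences, Prdx2 and Pex11a, are shown because they are the members that stayed past 2-fold when the median difference of the other transcript probes was set to 0, an alternative chosen after seeing the data. Each window runs 5′ to 3′ from 250 bases before to 30 bases after the gene's start in RefSeq on GRCm38.p6, Prdx2 at chr8:84969372-84969651 on the plus strand and Pex11a at chr7:79743102-79743381 on the minus strand. Capitals mark a GC box in Prdx2 and an ETS core in Pex11a, both of which match on the strand opposite to the printed one.
Prdx2: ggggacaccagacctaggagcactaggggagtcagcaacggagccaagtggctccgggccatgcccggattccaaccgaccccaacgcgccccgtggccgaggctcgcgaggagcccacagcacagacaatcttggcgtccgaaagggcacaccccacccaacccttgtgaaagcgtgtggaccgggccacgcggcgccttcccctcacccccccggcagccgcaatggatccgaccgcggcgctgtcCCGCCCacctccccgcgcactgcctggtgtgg
Pex11a: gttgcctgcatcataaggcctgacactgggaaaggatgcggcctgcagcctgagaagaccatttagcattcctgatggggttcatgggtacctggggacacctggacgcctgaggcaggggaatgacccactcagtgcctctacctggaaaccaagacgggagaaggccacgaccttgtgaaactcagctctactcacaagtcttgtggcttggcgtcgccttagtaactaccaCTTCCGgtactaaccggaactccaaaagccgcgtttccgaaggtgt
In RefSeq's full windows of 300 bases for 4 members (Prdx2, Pex11a, Ppara and Duox1), 8 motifs were searched on both strands. Acaa2 was left out of this search. Matches were counted without regard to whether 1 motif lay within another. No window held the PPAR response element known as DR1, a pair of AGGTCA copies 1 base apart, which 0.0396% of 32851 windows of all genes hold, nor a single AGGTCA, which 16.3% hold. The antioxidant response core TGACNNNGC (12.4% of windows), TATAAA (13.6%) and CCAAT (37.4%) were likewise in 0 of 4. The GC box GGGCGG was in 3 of 4 (Prdx2, Ppara and, beyond the bases printed, Pex11a), against 35.7% of all windows. The ETS core CGGAAG was in 2 of 4 (Pex11a, 16 bases before the start, and Duox1, 151 bases before it), against 16.9%, and GATAAG was in Duox1 alone, against 7.44%. GC content was 74.7% for Ppara, 68.7% for Prdx2, 57.3% for Pex11a and 46.7% for Duox1, against a median of 52.7%. These 4 members therefore had no common motif among those searched, and these matches describe letters in a window and not binding.

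In the main processing, the 5 differences fell into a higher pair and a lower group. Prdx2 exceeded Pex11a by 0.18 ± 0.06 on the log2 scale, and Pex11a exceeded Acaa2 by 0.70 ± 0.07, the widest step in the order. With quantile normalization, and with normexp under either scaling, the widest step lay instead between Duox1 and Ppara, with Ppara last. The values that follow are again from the main processing. Acaa2 and Ppara differed by 0.14 ± 0.21 and Ppara and Duox1 by 0.10 ± 0.22, which is within the spread over spots, while Acaa2 exceeded Duox1 by 0.24 ± 0.11. Among the 43 transcript probes measured on both arrays Prdx2 ranked 1, Pex11a 2, Acaa2 8, Ppara 11 and Duox1 12. The nearest other named probe was Uhrf1bp1l for Prdx2 and for Pex11a, at a difference of 2.03, then Spats1 for Acaa2 (1.78), Chgb for Ppara (1.59) and Rab5a for Duox1 (1.44). Likeness here is only the size of 1 difference between 2 arrays. At the 2-fold threshold, Dnajc11 lay just inside with 1.04 and Rps4l just outside with 0.97.

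**Figure D2:**
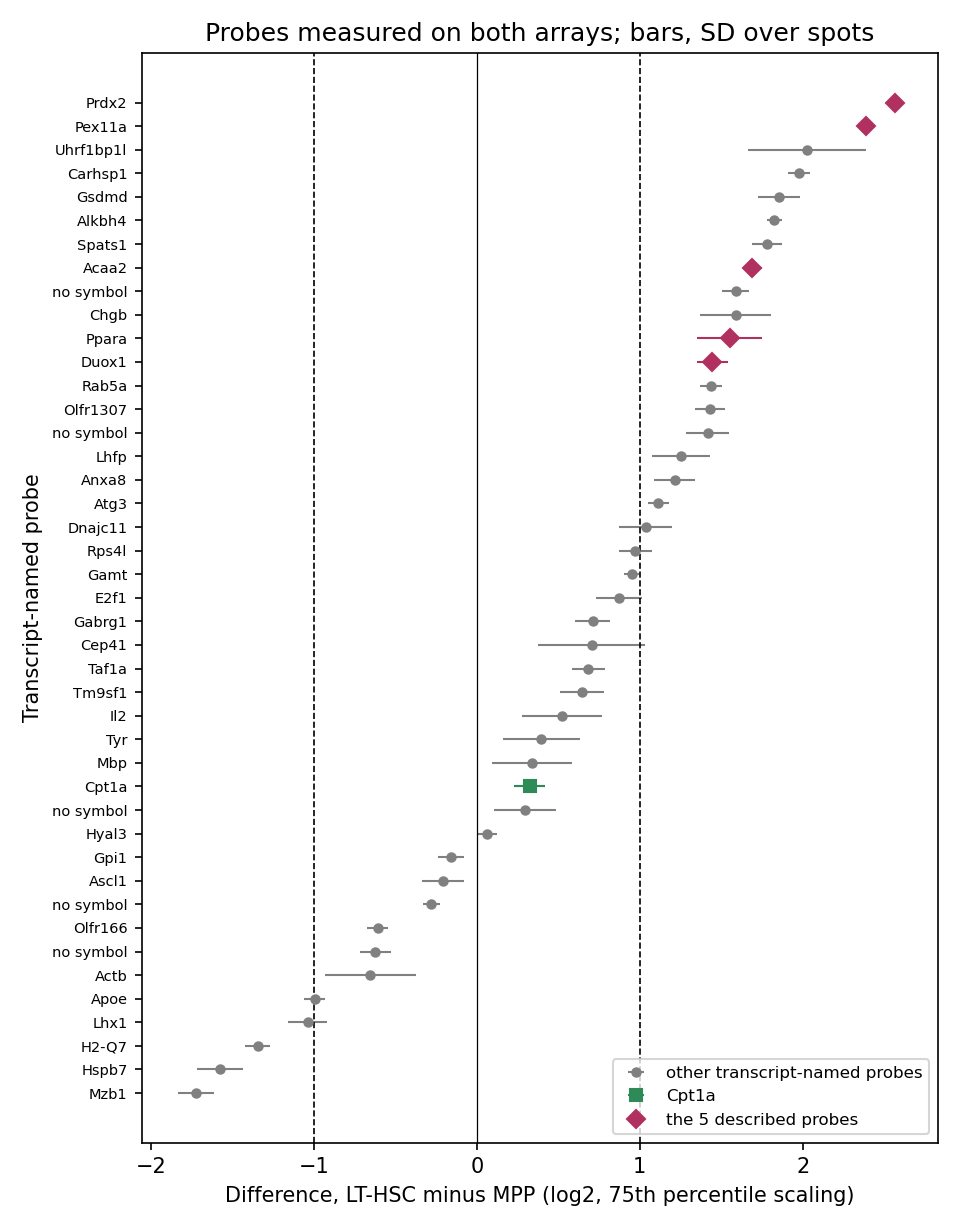
Difference between the arrays (LT-HSC minus MPP, log2, after 75th percentile scaling) for the 43 transcript probes measured on both, with bars for the SD over spots and dashed lines at 2-fold. The members (diamonds) take ranks 1, 2, 8, 11 and 12, and Cpt1a (square) lies at 0.33, within 2-fold.

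The background of the arrays bears on how these differences read. The median difference was 1.69 for the 5 members, 0.69 for the other 38 transcript probes, 0.19 for the 1048 circRNA probes measured on both arrays and 0.79 for the 9 negative-named probes of that kind. By their medians the transcript probes thus lay further toward LT-HSC than the circRNA probes, and 14 of the 38 other transcript probes (36.8%) passed 2-fold. So did 4 of the 9 negative-named probes, whose highest difference was 1.95. Prdx2 and Pex11a lay above all 9, whereas 2 of the 9 exceeded Acaa2, Ppara and Duox1. With the median difference of the other transcript probes set to 0, Prdx2 stood at 1.87 and Pex11a at 1.70, while Acaa2 was at 0.99, Ppara at 0.86 and Duox1 at 0.75, so 2 of 5 passed 2-fold, beside 7 of all 43 transcript probes (16.3%) and 84 of the 1048 circRNA probes under that setting. Centring each array on the median level of the other transcript probes, which leaves their median difference at 0.34, kept 5 of 5 past 2-fold, beside 34.9% of the transcript probes and 148 of the 1048 circRNA probes. With the negative-named probes' median difference set to 0, Prdx2 stood at 1.78, Pex11a at 1.60, Acaa2 at 0.90, Ppara at 0.77 and Duox1 at 0.66, again 2 of 5, beside 6 of the 43 transcript and 67 of the 1048 circRNA probes. Whether these probes read linear RNA that withstood the digestion or circular RNA of the same genes was not tested.

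**Figure D3:**
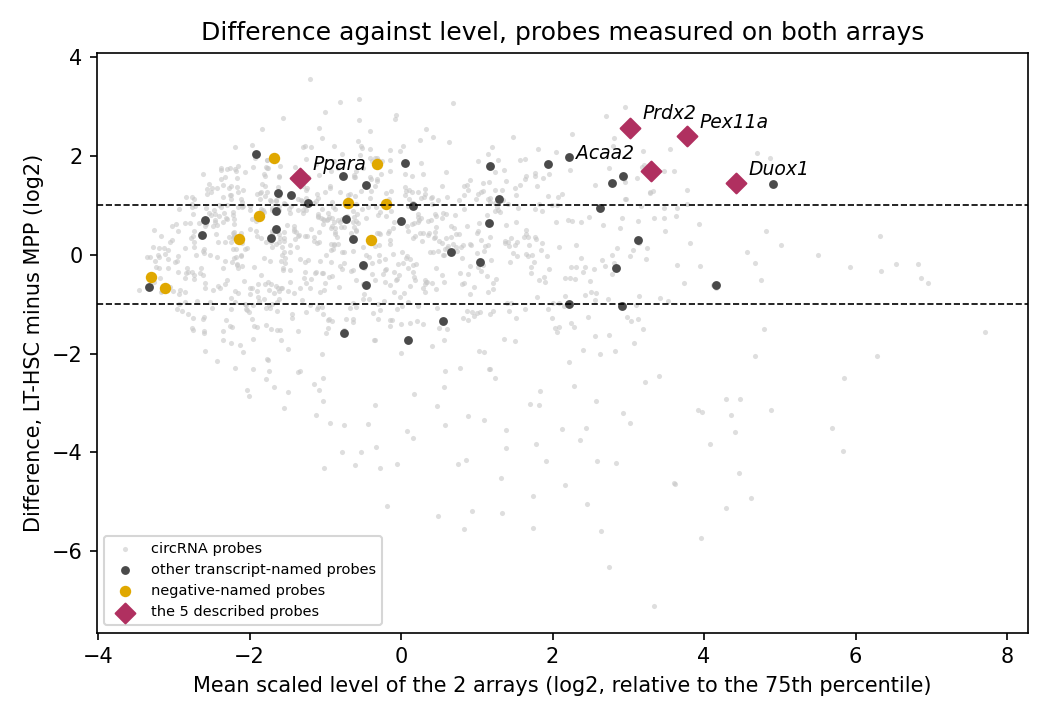
Difference (LT-HSC minus MPP, log2) against the mean scaled level of the arrays (log2, relative to the 75th percentile) for the probes measured on both: 1048 circRNA probes (grey), 38 other transcript probes (black), 9 negative-named probes (yellow) and the members (diamonds). Prdx2, Pex11a, Acaa2 and Duox1 lie to the right of the negative-named probes, and Ppara lies among them.

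Among circRNA probes, 11 had a larger difference than Prdx2 and 16 a larger one than Pex11a, of 1048. The corresponding counts were 85 for Acaa2, 115 for Ppara and 128 for Duox1. When only probes above the negative ceiling on each array were kept, 4 members remained, Ppara being lost. Of the 23 transcript probes kept, 11 passed 2-fold, and 7 of the 19 that are not members did. Over the 43 transcript probes, difference and mean level had a Pearson correlation of 0.16 and a Spearman correlation of 0.18, and without the members 0.01 (Pearson) over 38. These are descriptions across probes of the same 2 arrays.

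The differences were recomputed under 16 other ways of processing. Prdx2 passed 2-fold in 16, Pex11a in 15, Acaa2 and Duox1 in 13 each and Ppara in 11. Prdx2 was the largest in 15, with Pex11a first under lowess, and Acaa2 was in the middle in 16. Duox1 was the smallest in 12 and Ppara in 4. Quantile normalization gave the highest folds for Prdx2 (9.58), Pex11a (9.04), Acaa2 (5.72) and Duox1 (5.21). The highest fold for Ppara was 4.48, with no scaling. Centring each array on the median level of 9 negative-named probes, those well above background on each array, gave the lowest values. These were 1.00 for Prdx2, 0.82 for Pex11a, 0.12 for Acaa2, -0.015 for Ppara and -0.12 for Duox1, the last pair with the direction turned. The setting left the median difference of those 9 probes at -0.78 and that of the circRNA probes at -1.38. Every member lay above that median of the negative-named probes. Nothing is read from this, since the choice of members used the same contrast.

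**Figure D4:**
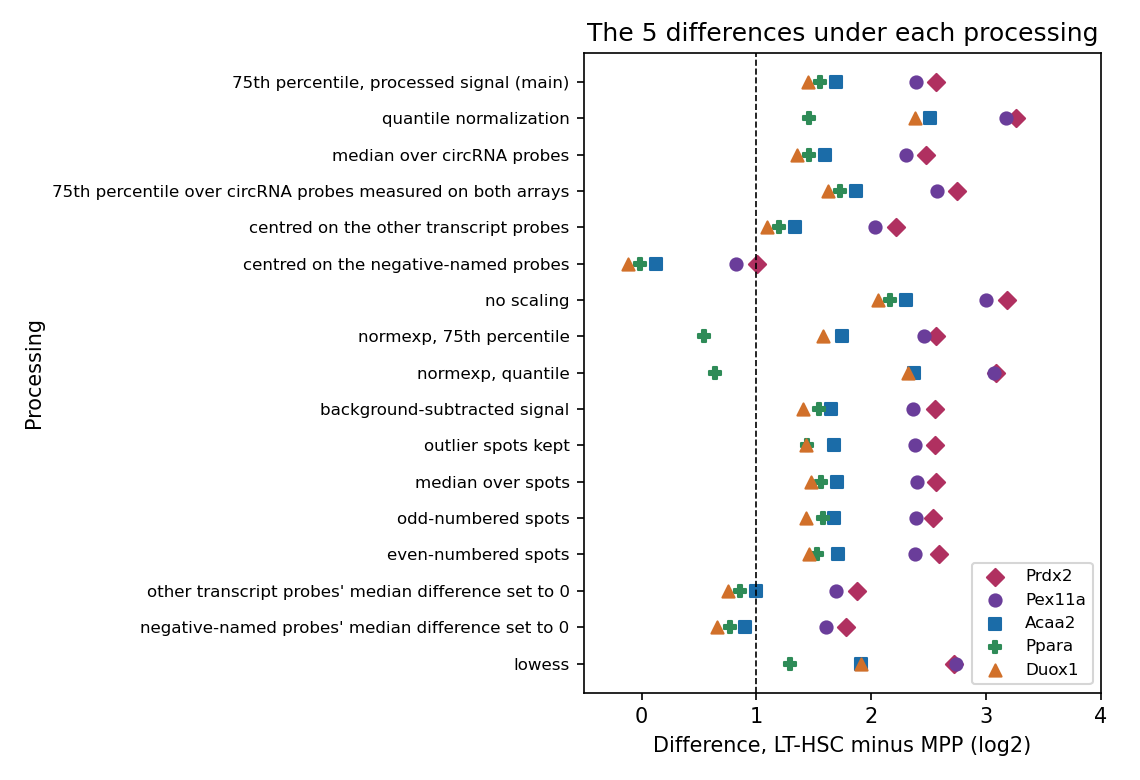
Difference of each member (LT-HSC minus MPP, log2) under the main processing, in the top row, and each of 16 alternatives, with a dashed line at 2-fold. Prdx2 stays at or past the line in every row, and Ppara and Duox1 fall below 0 only with centring on the negative-named probes. In that row the negative-named probes have a median difference of -0.78.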

How the data were processed

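The deposited scanner files give an intensity per spot in 1 colour. The authors extracted it with version 11.0.1.1 of Agilent Feature Extraction, with background subtraction and spatial detrending, per the file headers. The headers name mm9 for the array design. The deposited series table was not used, since it lists circRNA probes only. Spots marked as outliers were left out, log2 processed signal was averaged over spots, and each array's 75th percentile over 1797 circRNA probes (7.08 for LT-HSC, 6.47 for MPP) was subtracted. A probe was measured when more than 0.5 of its kept spots were flagged well above background. RefSeq (GRCm38.p6) named 44 of 50 transcript accessions.

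With 1 array per population no test was run. The number of arrays limits the precision. The members and lists were chosen with earlier results of these data known. Named genes are the members, the probes either side of 2-fold, each member's nearest probe and listed pathway genes on the array. The brightest and the dimmest transcript probes by mean scaled level, among those measured on both arrays, are named too. Alternatives were scalings, background corrections, spot averages, thresholds and filters. Normexp (offset 50) used limma 3.58.1 in R 4.3.3, and the rest Python 3.11.15, numpy 2.4.6, pandas 2.3.3 and statsmodels 0.14.6. The computation was tested on simulated data.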

Additional observations from a re-analysis of the deposited data

Results flagged for a closer look

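A probe named as a normal control, outside the comparisons, gave signal above the negative ceiling in both populations. The other probe of that kind, normal_control002, read 2.10 in LT-HSC and 1.78 in MPP and was not well above background on either array. Control probes of other kinds were not examined for this. The probe named normal_control001 read 683 in LT-HSC and 205 in MPP, against ceilings of 121 and 54.3. Over 17 kept spots on each array the SD was 0.02 and 0.08 on the log2 scale, and after scaling it was 2.18-fold higher in LT-HSC (1.12). The sources used here do not say what this probe targets. Scan day, which cannot be told apart from the population, also differed between these arrays.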

How the results depend on the processing

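Prdx2 and Pex11a kept their direction under all 16 alternatives, and Acaa2 did too, while Ppara and Duox1 turned under 1. That 1 was centring on the negative-named probes, which left their own median difference at -0.78. Of 155 alternative values, 76 stayed within the spread over spots (or 1.5 times a count), 77 moved and 2 reversed, and the cause was not tested. In the order Prdx2, Pex11a, Acaa2, Ppara and Duox1, the log2 differences were 2.57, 2.39, 1.69, 1.55 and 1.45, with Acaa2 also the median of the members in all 16. Centring on the negative-named probes gave 1.00, 0.82, 0.12, -0.015 and -0.12, centring on the other transcript probes 2.21, 2.04, 1.34, 1.20 and 1.09, and no scaling 3.18, 3.002, 2.30, 2.16 and 2.06. The next alternatives were chosen after seeing the data: the other transcript probes' median difference set to 0 gave 1.87, 1.70, 0.99, 0.86 and 0.75, the negative-named probes' set to 0 gave 1.78, 1.60, 0.90, 0.77 and 0.66, and lowess gave 2.72, 2.74, 1.91, 1.30 and 1.91. Quantile normalization moved Prdx2, Pex11a, Acaa2 and Duox1 to 3.26, 3.18, 2.51 and 2.38, and normexp with quantile moved all 5, to 3.08, 3.07, 2.37, 0.64 (Ppara) and 2.32 (Duox1). Normexp with the 75th percentile moved Pex11a to 2.46, Ppara to 0.54 and Duox1 to 1.58. The median over circRNA probes moved Prdx2, Pex11a and Acaa2 to 2.48, 2.30 and 1.60, and the 75th percentile over probes measured on both arrays moved those 3 and Duox1 to 2.74, 2.57, 1.87 and 1.62.

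The members past 2-fold numbered 5, and 1 with centring on the negative-named probes, 2 with either median difference set to 0 and 2 at a 4-fold threshold. The transcript probes past it numbered 19. That count was 1 with centring on the negative-named probes, 12 with normexp under 75th percentile scaling, 7 and 6 with the median difference of the other transcript or the negative-named probes set to 0, 3 at 4-fold, and 11 with the filter at the negative ceiling, which was also chosen after seeing the data. The circRNA probes past 2-fold numbered 254, and under those 6 settings 11, 109, 84, 67, 45 and 98. They numbered 148 with centring on the other transcript probes, 451 with no scaling, 126 with normexp and quantile, and 391 at a 1.5-fold threshold. The filter at the negative ceiling also cut the probes counted, to 23 transcript and 413 circRNA probes. The shares past 2-fold were then 47.8% and 23.7%, beside 44.2% and 24.2% in the main processing. No paired analysis was possible because only 1 array stands for each population, and for the same reason no replicate could be left out. Ppara is limited by its signal, which was under the negative ceiling in both populations.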
